A study of Mus musculus with 58 samples.

Results

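The cytochrome P450 genes of families 1 to 3, without Cyp2e1 and Cyp2f2, were followed in liver and kidney of male mice given 1 oral dose of trichloroethylene (TCE), of tetrachloroethylene (PCE) or of the vehicle. The members are the genes named Cyp1, Cyp2 or Cyp3 in the kidney count table, taken by the same RefSeq transcripts in the liver table and summed per gene. They came to 57 genes of 24125 in all. By subfamily, 2 members belong to Cyp1a, 1 to Cyp1b, 4 to Cyp2a, 5 to Cyp2b, 15 to Cyp2c, 8 to Cyp2d, 7 to Cyp2j and 9 to Cyp3a, and Cyp2g, Cyp2r, Cyp2s, Cyp2t, Cyp2u and Cyp2w have 1 member each. Of the 57, 46 passed the filter on low counts in liver, 30 in kidney and 28 in both, and 4 in liver and 5 in kidney had no read in any library.

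P450 enzymes of these families are haem proteins of the endoplasmic reticulum that oxidise drugs, solvents, steroids, bile acids and fatty acids, with electrons passed on by the reductase Por. In liver, groups of them are switched on by receptors that sense foreign chemicals: Cyp1a genes and Cyp1b1 by the aryl hydrocarbon receptor (AHR), Cyp2b genes and several Cyp2c genes by the constitutive androstane receptor (CAR), and Cyp3a genes by the pregnane X receptor (PXR), with overlap between the last pair. In rodents many members also differ between the sexes.

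The samples were 29 liver and 29 kidney libraries of total RNA in 10 groups per tissue. Mice aged 5 to 6 weeks received TCE at 24, 80, 240 or 800 mg/kg, PCE at 30, 100, 300 or 1000 mg/kg, or the vehicle alone, Alkamuls El-620 at 5% in saline given at 5 mL/kg. The doses correspond to about 0.22, 0.67, 2 and 6 mmol/kg of either chemical, so that both were compared at equal molar dose, and each chemical had its own vehicle group. The protocol gives the mice as B6C3F1/J, a hybrid strain, while the strain field of the labels reads C57BL/6, and the time from dosing to sampling is not given in the sources used here. Each group had 3 libraries except the kidney vehicle group of PCE and the liver group at 0.67 mmol/kg PCE, with 2 each.

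Liver libraries held 30932385 to 125880542 counted reads, 88048143 or more in the vehicle and 6 mmol/kg groups and 65112568 or fewer in the others, by the study's design; kidney libraries held 23247565 to 32420329. Hepatocyte markers dominated the liver libraries and proximal tubule markers the kidney libraries. Kidney library 2 of the TCE vehicle group carried more liver-type transcripts than the others of its group, with albumin (Alb) at 83.0 CPM (a gene's read count scaled to library size), against 7.06 and 21.6. The kidney library 3 at 0.67 mmol/kg TCE carried adrenal cortex markers at 5152 CPM in sum, against a median of 4.74 over all kidney libraries. The labels number the libraries of a group but do not say that each came from its own mouse. The p-values measure only the spread between these samples. Within groups, all 56 pairs of libraries differed by more than random sampling of reads gives. The lowest ratio of chi-square to its degrees of freedom was 14.57. How much of the spread is technical, from handling of the samples, was not tested.

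Promoter sequences, 250 bases up to a start placed by RefSeq (build GRCm38.p6), are shown here for members on which the results below turn. For Cyp1a1, with 2 transcripts, that start lies inside the span of the gene, which begins at chr9:57687928. The first set holds the AHR targets, because Cyp1a1 stayed near 0 in both tissues while Cyp1a2 was higher in liver and Cyp1b1 higher in kidney: Cyp1a1 at chr9:57697363-57697612 on the plus strand, Cyp1a2 at chr9:57683656-57683905 and Cyp1b1 at chr17:79715062-79715311, both on the minus strand. Capitals mark GCGTG, the core of the AHR binding motif, read on either strand.
Cyp1a1: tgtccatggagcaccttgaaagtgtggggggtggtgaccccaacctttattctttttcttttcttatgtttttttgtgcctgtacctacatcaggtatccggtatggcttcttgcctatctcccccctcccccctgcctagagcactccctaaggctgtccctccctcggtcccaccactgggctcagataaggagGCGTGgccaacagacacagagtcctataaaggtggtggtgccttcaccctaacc
Cyp1a2: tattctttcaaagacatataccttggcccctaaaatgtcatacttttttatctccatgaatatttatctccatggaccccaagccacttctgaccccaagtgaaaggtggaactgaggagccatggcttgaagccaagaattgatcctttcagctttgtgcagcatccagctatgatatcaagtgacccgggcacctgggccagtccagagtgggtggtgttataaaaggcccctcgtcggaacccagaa
Cyp1b1: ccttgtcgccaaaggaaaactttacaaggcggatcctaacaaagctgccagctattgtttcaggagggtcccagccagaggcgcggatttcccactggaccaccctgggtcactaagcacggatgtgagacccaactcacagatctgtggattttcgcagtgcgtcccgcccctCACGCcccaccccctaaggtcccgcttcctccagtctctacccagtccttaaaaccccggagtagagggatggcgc
The motif was found once in Cyp1a1, once in Cyp1b1 and not in Cyp1a2 within this window. It occurred in the same window of 8 of the 50 members with a promoter sequence and of 30.9% of 27025 genes.

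Cyp3a11, the most abundant member in liver, is shown with CAAAGTCCA in capitals, a motif bound by the liver factor HNF4, at chr5:145879855-145880104 on the minus strand.
Cyp3a11: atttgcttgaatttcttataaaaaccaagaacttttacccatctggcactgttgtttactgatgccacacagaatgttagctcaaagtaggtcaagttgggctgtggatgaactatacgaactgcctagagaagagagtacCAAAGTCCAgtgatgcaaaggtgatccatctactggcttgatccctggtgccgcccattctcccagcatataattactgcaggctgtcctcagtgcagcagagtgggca
This motif occurred in 10 of the 50 members (Cyp2c40, Cyp2c65, Cyp2c67, Cyp2c68, Cyp2c69, Cyp2c70, Cyp3a11, Cyp3a16, Cyp3a41a and Cyp3a41b) and in 0.451% of the 27025 genes. Of these 10, 8 were tested in both tissues together and all 8 had higher counts in liver in vehicle-treated mice, as did 37 of all 47 members tested and 5353 of 14950 genes. Of the 8, Cyp2c70, Cyp3a16 and Cyp3a41a did not pass the count filter in kidney alone, so their direction was fixed by the filter. Several carriers are also close relatives and not independent. Of the 50-base windows of the Cyp2c40 transcript, 72.1% occur in other genes. The nuclear receptor half-sites AGGTCA and AGTTCA, which can lie inside larger receptor elements, were found in 14 and 8 of the 50 members, against 15.8% and 13.4% of the genes. With AGGTCA 8 of 11 tested members were higher in liver, with AGTTCA 6 of 6 and with GCGTG 3 of 5. Some of these members, too, entered the joint fit through 1 tissue alone. Such motif matches describe letters in a short window and not binding.

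Cyp2a4 (steroid 15-alpha-hydroxylase) and Cyp2a5 (coumarin 7-hydroxylase) are close relatives on chromosome 7 that were distributed differently between the tissues and both rose in liver with PCE. Their promoters, Cyp2a4 at chr7:26306942-26307191 and Cyp2a5 at chr7:26835089-26835338, both on the plus strand, are shown with the letters that differ in capitals.
Cyp2a4: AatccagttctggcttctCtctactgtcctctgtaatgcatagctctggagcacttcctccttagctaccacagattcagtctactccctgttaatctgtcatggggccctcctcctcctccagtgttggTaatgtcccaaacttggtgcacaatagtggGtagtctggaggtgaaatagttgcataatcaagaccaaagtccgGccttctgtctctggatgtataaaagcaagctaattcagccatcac
Cyp2a5: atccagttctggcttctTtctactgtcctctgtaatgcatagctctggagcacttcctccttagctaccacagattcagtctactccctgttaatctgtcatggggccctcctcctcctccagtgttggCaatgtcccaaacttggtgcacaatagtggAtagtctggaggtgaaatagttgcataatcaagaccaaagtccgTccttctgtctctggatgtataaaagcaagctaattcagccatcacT
Over the aligned window, 245 positions were identical, 4 were mismatched and 2 were gap positions at the ends, an identity of 97.6%. Of the transcripts, 36.1% of the 50-base windows of Cyp2a4 and 31.0% of those of Cyp2a5 occur in the other gene as well, so part of their reads could be assigned to neither or to the wrong one. The same holds more strongly for Cyp3a41a, of whose windows 93.7% occur in Cyp3a41b, a gene with no read in any vehicle library, and these values are uncertain.

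In vehicle-treated mice the members made up a mean of 15290 ± 2559 CPM in liver (SD, n = 6) and 4719 ± 380 CPM in kidney (SD, n = 5). In liver the sums per subfamily were 4710 ± 660 CPM for Cyp2d, 3831 ± 1392 for Cyp3a, 3753 ± 692 for Cyp2c, 1215 ± 180 for Cyp2a, 969 ± 125 for Cyp1a, 767 ± 106 for Cyp2j and 7.54 ± 4.33 for Cyp2b. In kidney the order was another one, with Cyp2j at 3567 ± 219 CPM, Cyp2a at 656 ± 154 and Cyp2d at 447 ± 78.8, while Cyp2c stood at 8.13 ± 2.56, Cyp2b at 6.90 ± 4.56, Cyp3a at 1.20 ± 1.25 and Cyp1a at 0.294 ± 0.394 CPM. Of the CAR, PXR and AHR target subfamilies, Cyp1a, Cyp2c and Cyp3a were thus far lower in kidney than in liver, while the Cyp2b sums were within their spread of each other.

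Per kilobase of transcript, which allows genes to be compared, liver levels were highest for Cyp3a11, the main steroid and drug hydroxylase of the mouse Cyp3a group, at 1499 ± 594 CPM per kb (SD, n = 6). Cyp2d9, a testosterone 16-alpha-hydroxylase of male liver, followed at 1249 ± 227, Cyp2c29 at 831 ± 260, Cyp2d10 at 757 ± 130 and Cyp2d26 at 689 ± 74.0 CPM per kb. From Cyp3a11 to Cyp2d26 the ranges of mean ± SD of neighbours in this order overlapped. The next were Cyp2c70, a bile acid hydroxylase, at 503 ± 136, Cyp1a2, which oxidises aromatic amines and caffeine, at 500 ± 64.6, Cyp2a12 at 489 ± 74.3 and Cyp2j5 at 284 ± 46.5 CPM per kb.

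In kidney Cyp2j5, an arachidonic acid epoxygenase, alone reached 1046 ± 52.1 CPM per kb (SD, n = 5), 51.4% of the summed per-kilobase level of all members. It was followed by Cyp2a4 at 301 ± 80.7, Cyp2j13 at 179 ± 24.4, Cyp2j11 at 138 ± 19.5, Cyp2d26 at 137 ± 29.5, Cyp2d9 at 97.6 ± 25.3 and Cyp2a5 at 65.4 ± 20.5 CPM per kb. Cyp2j11 and Cyp2d26 did not differ beyond their spread. Among the Cyp1a, Cyp1b, Cyp2b and Cyp2c genes the highest in kidney were Cyp2b10 at 3.39 ± 2.28, Cyp2c44 at 3.09 ± 0.667 and Cyp1b1 at 1.84 ± 0.686 CPM per kb.

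The subfamilies with 1 member were low in both tissues. Cyp2u1 stood at 35.3 ± 8.35 CPM in liver and 4.35 ± 0.434 in kidney, Cyp2s1 at 0.238 ± 0.0843 and 18.9 ± 1.89, Cyp2r1, a vitamin D 25-hydroxylase, at 3.17 ± 1.22 and 0.324 ± 0.0506, and Cyp2t4 at 0.187 ± 0.0662 and 0.374 ± 0.121 CPM (SD, n = 6 and 5). Cyp2g1 reached 0.975 ± 0.447 CPM in liver and had no read in the kidney vehicle libraries, and Cyp2w1 had none in either. At 6 mmol/kg of either chemical none of Cyp2g1, Cyp2r1, Cyp2s1 and Cyp2t4 was called in a tissue where it was tested.

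**Figure D1:**
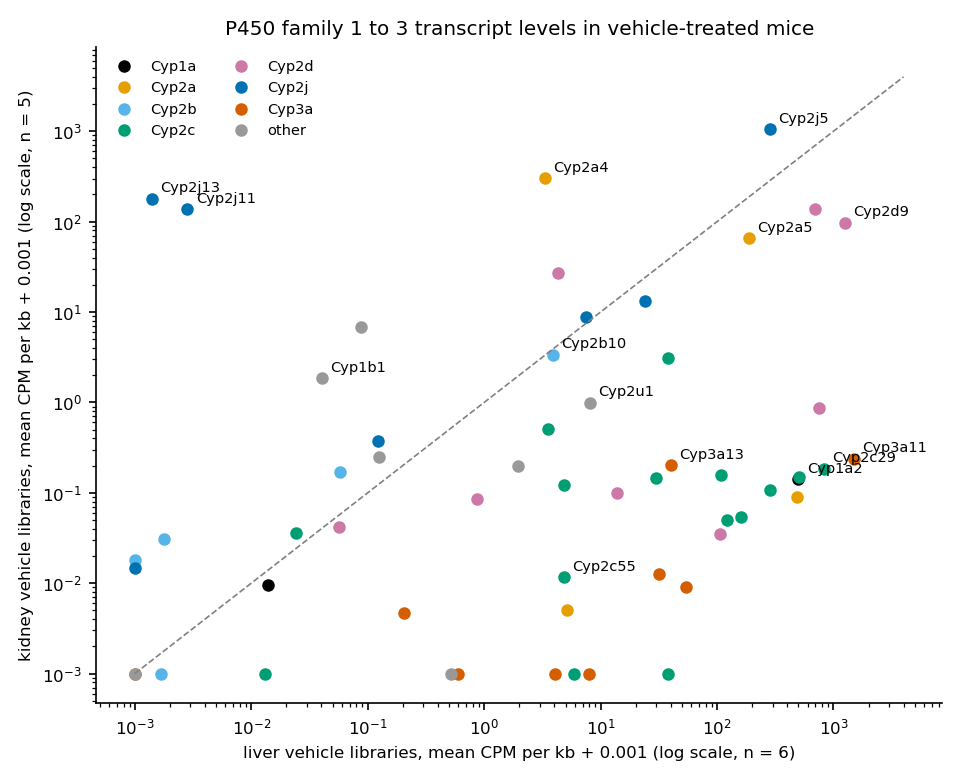
Mean level of each member in vehicle-treated mice, in CPM per kilobase plus 0.001 on log axes, in liver (horizontal, n = 6 libraries) against kidney (vertical, n = 5), coloured by subfamily, with the dashed line at equal level. Cyp3a11, Cyp2c29 and Cyp1a2 sit at the lower right, far below the line, Cyp2j13 and Cyp2j11 at the upper left, and Cyp2j5 and Cyp2a4 above the line.

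Between the tissues, 44 of the 47 members tested in 1 fit of all libraries differed in vehicle-treated mice, 37 with higher counts in liver and 7 in kidney, and 72.9% of the 14950 genes tested differed. With each tissue filtered alone, 28 members passed in both tissues, 18 in liver only and 2 in kidney only. For members that entered the joint fit through 1 tissue alone, the direction was fixed by the filter. For these the call describes where the gene is expressed and is not a free test. The 7 higher in kidney were Cyp2j13, Cyp2j11, Cyp2j5, Cyp2a4, Cyp2s1, Cyp1b1 and Cyp2d12. This split depends on how the tissues are scaled: with library totals in place of TMM, edgeR's trimmed mean scaling, the median of all genes shifted from 0.01 to -1.06 (log2, liver minus kidney), and 35 members were called higher in liver and 9 in kidney, with 42 called in the same direction under both. Cyp2j9 went from 0.78 to -0.32 (adjusted p = 0.261) and Cyp2b10 from 1.31 to 0.27 (adjusted p = 0.534), and Cyp2j8 and Cyp2t4 passed only with library totals, both higher in kidney.

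Ratios of pooled vehicle counts, put on the CPM scale within each tissue and therefore close to the library-total scale, give the size of the contrast. Cyp3a11 was 6687-fold, Cyp2c29 4794-fold and Cyp1a2 3671-fold higher in liver. Their kidney values rest on 71, 42 and 35 pooled reads, mainly from TCE vehicle library 2, the one with the most albumin transcript. In that library Cyp3a11 held 2.10 CPM, against 0.0384 and 0.0319 CPM in the PCE vehicle kidneys, so the size of these ratios depends on it. Cyp2c50, with 41349 reads in liver and none in kidney, was at least 2994-fold higher, taking 3 reads over the group as the floor, and Cyp3a41a and Cyp3a44 were at least 727-fold and 362-fold higher on the same floor. Cyp2a5 was 2.90-fold higher in liver, whereas its relative Cyp2a4 was 86.1-fold higher in kidney. Cyp2j13 had 103560 reads in kidney and 1 in liver, a ratio of 476800 with a 95% counting interval of 85580 to 18830000. Cyp1b1 was 45.7-fold and Cyp2j5 3.64-fold higher in kidney. In such bulk tissue samples, fewer cells of a type and less RNA per cell cannot be told apart.

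The AHR target Cyp1a1 was all but silent: its highest level was 0.0798 CPM in liver and 0.108 CPM in kidney over all doses of both chemicals, and it was not tested. Cyp1a2 stood in liver at 858, 1095 and 1071 CPM in the 3 PCE vehicle libraries and at 302, 620 and 759 CPM at 6 mmol/kg PCE. All 3 dosed libraries lay below all 3 vehicle libraries, and the lowest was library 1. The fall was 0.85 ± 0.25 on the log2 scale (SE; adjusted p = 0.0447, edgeR quasi-likelihood test). With TCE at 6 mmol/kg Cyp1a2 stood at 886, 636 and 740 CPM, against 1051, 954 and 787 CPM in its vehicle libraries, and the groups overlapped (-0.30, 95% interval -0.81 to 0.20, adjusted p = 0.737). Cyp1b1 in liver stayed at or under 1.11 CPM in every library, with values of 1.13 for PCE (adjusted p = 0.111) and 0.91 for TCE (adjusted p = 0.432) at 6 mmol/kg.

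The call on Cyp1a2 was close to the threshold: it was lost in 20 of 36 alternatives, 16 of them single libraries left out, with adjusted p between 0.0337 and 0.213 over all 29 libraries. Without library 1 at 6 mmol/kg PCE its log2 value was -0.55 (adjusted p = 0.213). The call was also lost without library 2 at that dose (adjusted p = 0.0533) and without PCE vehicle library 1, 2 or 3 (adjusted p of 0.0602, 0.134 and 0.0770), and the other libraries concerned belong to groups outside the comparison that enter only through the shared spread.

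Cyp2b10, the classic CAR target, showed no called change in any of the 8 liver comparisons. Its PCE vehicle libraries held 7.74, 8.06 and 14.3 CPM and its libraries at 6 mmol/kg PCE 15.6, 5.65 and 18.6 CPM, which overlap. The log2 change was 0.40, with a 95% interval of -0.67 to 1.47, so a rise of up to 1.47 or a fall is compatible with these libraries. For TCE at 6 mmol/kg the vehicle libraries held 2.40, 8.72 and 3.34 CPM and the dosed ones 6.15, 2.71 and 5.27, a change of -0.04 (-1.11 to 1.04). The sex-biased Cyp2b9 did not exceed 0.539 CPM in the vehicle and 6 mmol/kg libraries of liver, and Cyp2b13 did not exceed 0.0277 CPM in any liver library, which left it untested.

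The PXR target Cyp3a11 stood at 4973, 4656 and 4167 CPM in the PCE vehicle livers and at 2767, 2356 and 2920 CPM at 6 mmol/kg PCE, with no overlap. The log2 value was -0.78 ± 0.24 (SE), just short of the threshold (adjusted p = 0.0567). Its TCE vehicle libraries, which had the same treatment as those of PCE, were lower and more spread, at 2006, 3655 and 1629 CPM, and held 2985, 2213 and 3664 CPM at 6 mmol/kg TCE (0.28, -0.22 to 0.78, adjusted p = 0.762). Against both vehicle groups pooled, the TCE value turned to -0.25 (adjusted p = 0.80). TCE vehicle libraries 1 and 3, low in Cyp3a11, had the acute phase transcript Saa1, chosen after its values were seen, at 19580 and 11250 CPM, against 104 in library 2 and 103 to 606 in the PCE vehicle libraries. The part of that difference in the Cyp3a11 values was not tested.

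Cyp3a13, another Cyp3a gene, went the other way. It stood at 96.8, 76.2 and 95 CPM in the PCE vehicle livers and at 224, 121 and 135 CPM at 6 mmol/kg PCE, without overlap, and rose by 0.84 ± 0.22 (adjusted p = 0.0277). The TCE vehicle libraries held 165, 111 and 170 CPM, above all 3 of PCE, and against both vehicle groups pooled the change was 0.43 (adjusted p = 0.210). The call was also lost without PCE vehicle library 1 (adjusted p = 0.0554), without PCE vehicle library 2 (adjusted p = 0.118) and without PCE library 1 at 6 mmol/kg, where the value was 0.52 (adjusted p = 0.213). Cyp3a25 (0.39), Cyp3a41a (-0.62) and Cyp3a44 (-0.38) did not pass with PCE at 6 mmol/kg, with adjusted p of 0.320, 0.267 and 0.483. With TCE the same genes were at -0.27, -0.56 and -0.10 (adjusted p of 0.778, 0.619 and 0.966) and Cyp3a13 at -0.44 (adjusted p = 0.438).

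Of the Cyp2c genes in liver, which include CAR and PXR targets and retinoic acid and arachidonic acid oxidases, 1 of 13 tested was called at 6 mmol/kg PCE and none at 6 mmol/kg TCE. Of all genes, 5.84% and 1.31% were called. Cyp2c39, a retinoic acid hydroxylase, stood at 15.1, 10.1 and 10.5 CPM in the PCE vehicle libraries and at 40.1, 12.0 and 33.2 CPM at 6 mmol/kg. Libraries 1 and 3 were high and library 2 lay within the vehicle range. The rise was 1.26 ± 0.35 (adjusted p = 0.0364), and the call was lost in 8 of 36 alternatives, among them the omission of PCE vehicle library 1, 2 or 3 (adjusted p of 0.0522, 0.127 and 0.0758), of library 3 at 6 mmol/kg (adjusted p = 0.114) and of library 1 there, where the value was 0.93 (adjusted p = 0.206). The Cyp2c genes given whatever their result did not pass: Cyp2c29 was at 0.18 ± 0.35 with PCE and 0.37 ± 0.35 with TCE, Cyp2c37 at -0.44 ± 0.26 and 0.35 ± 0.26, Cyp2c50 at 0.21 ± 0.24 and 0.78 ± 0.24, Cyp2c54 at -0.03 ± 0.22 and 0.60 ± 0.22, Cyp2c55 at -1.14 ± 0.56 and -0.36 ± 0.56, and Cyp2c70 at -0.74 ± 0.32 and -0.30 ± 0.32. Their adjusted p lay between 0.139 (Cyp2c50 with TCE) and 0.936 (Cyp2c54 with PCE).

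As summed levels in liver at 6 mmol/kg, Cyp1a came to 754 ± 126 CPM with TCE and 560 ± 234 with PCE (SD, n = 3), against 931 ± 134 and 1008 ± 130 in the vehicle groups. Cyp2c came to 3979 ± 824 and 3680 ± 1196 CPM, against 3349 ± 195 and 4157 ± 819. Cyp3a came to 3202 ± 740 and 3069 ± 379 CPM, against 2758 ± 1110 and 4903 ± 399, so that the dosed groups were alike in level and the vehicle groups were not. Cyp2b came to 4.90 ± 1.60 and 13.5 ± 7.00 CPM, against 4.93 ± 3.54 and 10.2 ± 3.71.

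**Figure D2:**
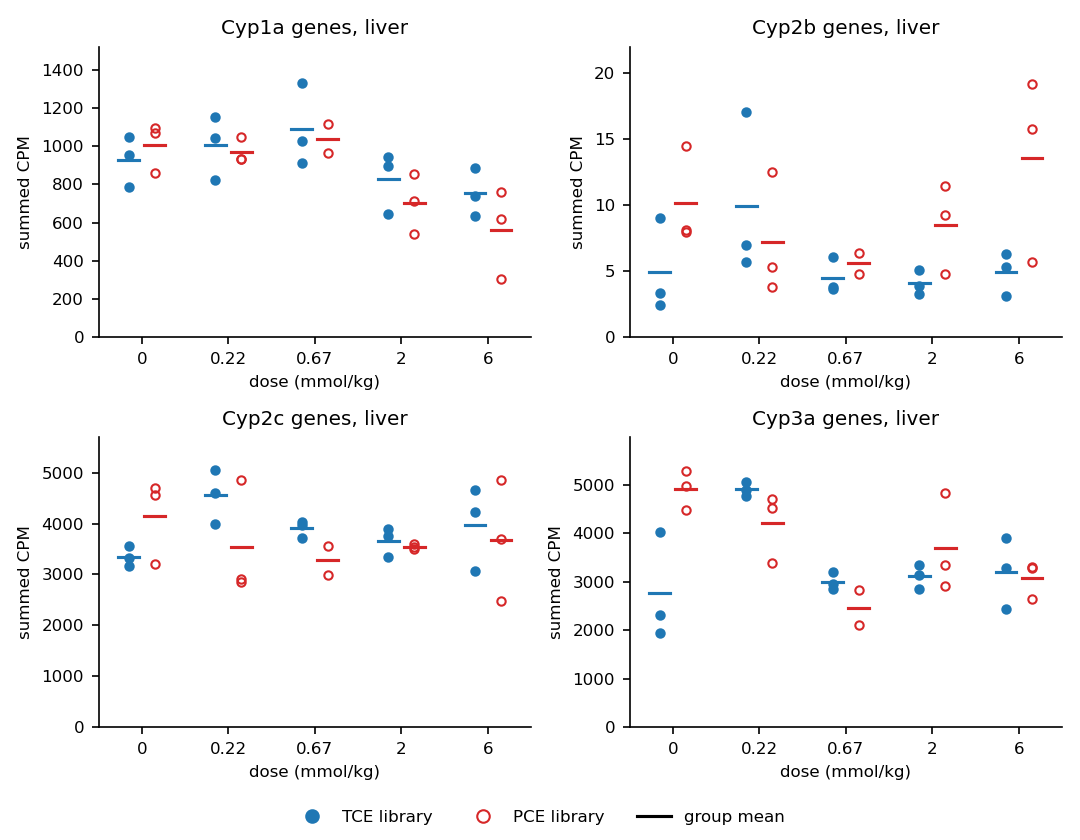
Summed CPM of the Cyp1a, Cyp2b, Cyp2c and Cyp3a genes in each liver library by dose in mmol/kg, with TCE as filled and PCE as open points and a line at each group mean. The PCE vehicle libraries of Cyp3a (4479 to 5271 CPM) lie above the TCE vehicle libraries (1949 to 4024 CPM), and the Cyp1a sum is lowest at 6 mmol/kg PCE (302 to 759 CPM).

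Over all members tested in liver, 0 of 46 were called at 6 mmol/kg TCE, where 1.31% of 13175 genes were. At an unadjusted p under 0.05 there were 15 of 46 members and 1545 of the 13175 genes, and DESeq2 called 1, Cyp2d9. The members' log2 changes had medians of 0.60 for Cyp2c (11 of 13 above 0), -0.36 for Cyp3a (6 of 8 below 0) and 0.40 for Cyp2a (4 of 4 above 0), beside -0.04 for all genes. The male-type Cyp2d9 was at 2751, 2384 and 2635 CPM against 1991, 2282 and 1420 in vehicle livers, without overlap, a value of 0.45 ± 0.14 (adjusted p = 0.140). Cyp2j5 was at 0.21 ± 0.18 (adjusted p = 0.760). Without TCE vehicle library 2, whose Saa1 level was low, 3 members were called, Cyp2c38, Cyp2c50 and Cyp2d9, and without TCE vehicle library 1 or PCE library 1 at 6 mmol/kg there was 1 call.

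With PCE at 6 mmol/kg 6 of 46 members were called in liver, 4 higher and 2 lower, where 5.84% of the 13175 genes were called. Before adjustment p was below 0.05 for 18 of 46 members and 3353 genes. DESeq2 called 8, the same 6 and Cyp2d10 and Cyp3a11. Medians were -0.44 for Cyp2c (9 of 13 below 0), -0.44 for Cyp2d (7 of 8 below 0), -0.50 for Cyp3a (6 of 8 below 0) and 0.95 for Cyp2a (3 of 4 above 0), beside 0.00 for all genes. Besides Cyp1a2, Cyp2c39 and Cyp3a13, described above, the called members were Cyp2a4, Cyp2a5 and Cyp2u1.

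Both Cyp2a genes with near-identical promoters rose. Cyp2a5 stood at 501, 379 and 447 CPM in the PCE vehicle livers and at 1226, 853 and 1498 CPM at 6 mmol/kg PCE, a rise of 1.43 ± 0.30 (adjusted p = 0.00966). Cyp2a4, at 9.19, 4.06 and 6.76 CPM in vehicle livers, reached 21.8, 13.9 and 28.1 CPM, a rise of 1.67 ± 0.36 (adjusted p = 0.0134). With TCE at 6 mmol/kg Cyp2a5 was at 0.52 ± 0.29 (adjusted p = 0.530) and Cyp2a4 at 0.82 ± 0.36 (adjusted p = 0.351). With PCE, in either gene, every dosed library lay above every vehicle library. Because the genes share sequence and Cyp2a5 was far more abundant, reads of Cyp2a5 could add to the Cyp2a4 count, and the size of that share was not tested. Without library 1 at 6 mmol/kg PCE the values were 1.41 for Cyp2a5 (adjusted p = 0.0562) and 1.66 for Cyp2a4 (adjusted p = 0.0655). Cyp2a4 also lost its call without PCE vehicle library 2 (adjusted p = 0.0649) and without library 3 at 6 mmol/kg PCE (adjusted p = 0.0569).

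Cyp2u1, a long-chain fatty acid hydroxylase, fell most clearly. It stood at 31.7, 27.1 and 36.1 CPM in the PCE vehicle livers and at 7.80, 17.1 and 15.3 CPM at 6 mmol/kg PCE, lower by 1.24 ± 0.23 on the log2 scale (value -1.24, adjusted p = 0.00490). Its call held with each library left out in turn, with values from -1.46 to -0.96. With TCE at 6 mmol/kg its libraries held 24.7, 22.8 and 21.5 CPM, all below the vehicle libraries at 27.7, 49.1 and 39.9 (-0.76 ± 0.23, adjusted p = 0.121).

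Several measures moved with the PCE group. Library 1 at 6 mmol/kg PCE, the lowest for Cyp1a2 and Cyp2u1 and the highest for Cyp3a13, had Saa1 at 7377 CPM, against 592 and 306 in its group, and without it 1 of the 6 members, Cyp2u1, was called. Without PCE vehicle library 1 or 2 the count was 3 or 2. Regressed on GC content over genes, log2 CPM changed per 10 percentage points of GC by -0.35 to -0.19 in the libraries at 6 mmol/kg PCE and -0.01 to 0.21 in their vehicle libraries. With the slopes on GC content and length as covariates none of the 6 was called. The values were then 1.07 for Cyp2a5, 0.84 for Cyp2a4, 0.35 for Cyp2c39, 0.50 for Cyp3a13, -1.23 for Cyp2u1 (adjusted p = 0.0620) and -0.91 for Cyp1a2. The part of GC content, or of the acute phase difference, in these calls was not tested. Of the marker lists, the macrophage marker Adgre1 (1.42 ± 0.41) and the fibroblast markers Dcn (1.30 ± 0.26) and Rgs5 (1.55 ± 0.43) were called higher and the hepatocyte zone markers Oat (-0.75 ± 0.22) and Ass1 (-1.13 ± 0.34) lower. The summed macrophage list ran from 94.3 to 173 CPM at 6 mmol/kg PCE and from 51.6 to 167 CPM in the vehicle libraries, and the hepatocyte list from 133200 to 156600 and from 122200 to 130300 CPM. The pericentral hepatocyte list held 1156, 961 and 1382 CPM at 6 mmol/kg PCE and 1508, 1524 and 1694 CPM in the vehicle libraries, lower in every dosed library, as Cyp1a2 was. The periportal list, which holds Ass1, overlapped, at 7130, 3739 and 4582 CPM against 3084, 4611 and 3940 CPM. So did the fibroblast and stellate cell list, which holds Dcn and Rgs5, at 80.6, 110 and 78.5 CPM against 63.0, 82.6 and 42.8 CPM. Their part in these calls was not tested.

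**Figure D3:**
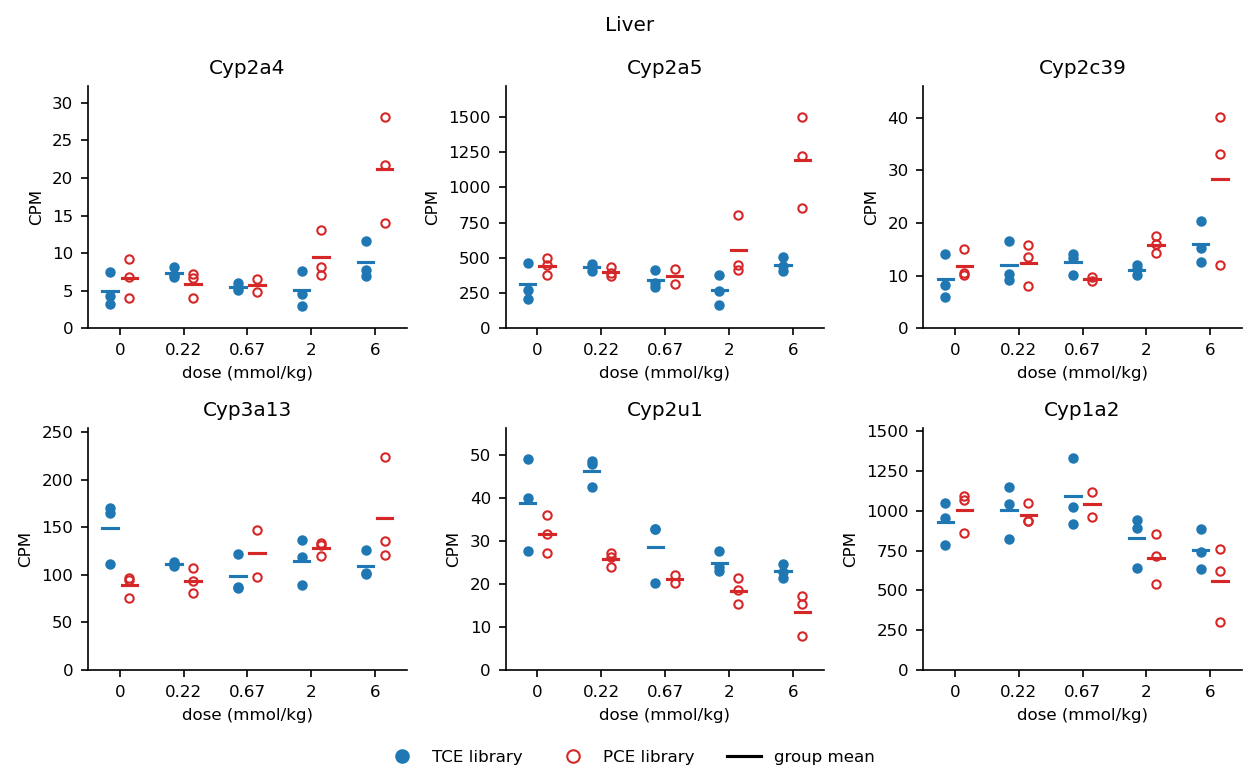
CPM in each liver library by dose in mmol/kg for the 6 members called at 6 mmol/kg PCE, with TCE as filled and PCE as open points and a line at each group mean. Cyp2a4, Cyp2a5, Cyp2c39 and Cyp3a13 are higher at 6 mmol/kg PCE than in the PCE vehicle group, and Cyp2u1 and Cyp1a2 lower.

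Below 6 mmol/kg no member was called in liver. The share of all genes called was 0% at 0.22, 0.00759% at 0.67 and 0.00759% at 2 mmol/kg TCE, and 0.00759%, 0.00759% and 0.182% at the same doses of PCE. At an unadjusted p under 0.05 there were 12, 10 and 10 of the 46 members with TCE and 1, 10 and 8 with PCE. Of the 13175 genes, 774, 1053 and 1263 had such a p with TCE and 580, 997 and 1529 with PCE. Without TCE vehicle library 2 there were 2 calls over these doses. DESeq2 called Cyp3a16 at 2 mmol/kg TCE, Cyp3a11 and Cyp3a59 at 0.67 mmol/kg PCE and none at the other doses.

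The libraries at 0.67 mmol/kg PCE, of which there were 2, held many members at low levels: 19 of 46 lay below all 3 vehicle libraries and 4 above, where 9.78% of all genes lay below and 9.00% above. Cyp3a11 held 1846 and 2633 CPM there (-1.04 ± 0.28, adjusted p = 0.276), and the Cyp3a median was -1.07. The pericentral list held 1354 and 1172 CPM in these libraries, below the vehicle libraries, and the hepatocyte list 97420 and 126500 CPM against 122200 to 130300 CPM, and their part in these values was not tested. At 0.22 mmol/kg TCE the picture was the opposite, with 14 of 46 members above all vehicle libraries and 0 below, against 5.35% and 8.00% of all genes. Cyp3a11 held 4652, 4392 and 4500 CPM there (0.89 ± 0.24, adjusted p = 0.390), close to the PCE vehicle libraries. All 13 Cyp2c members had positive values at that dose, with a median of 0.52, beside -0.02 for all genes. The same TCE vehicle libraries enter all of these values. For Cyp2c, PCE vehicle livers minus TCE vehicle livers had a median of 0.64, with 12 of 13 above 0. The part of the vehicle group in these positive values was not tested.

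**Figure D4:**
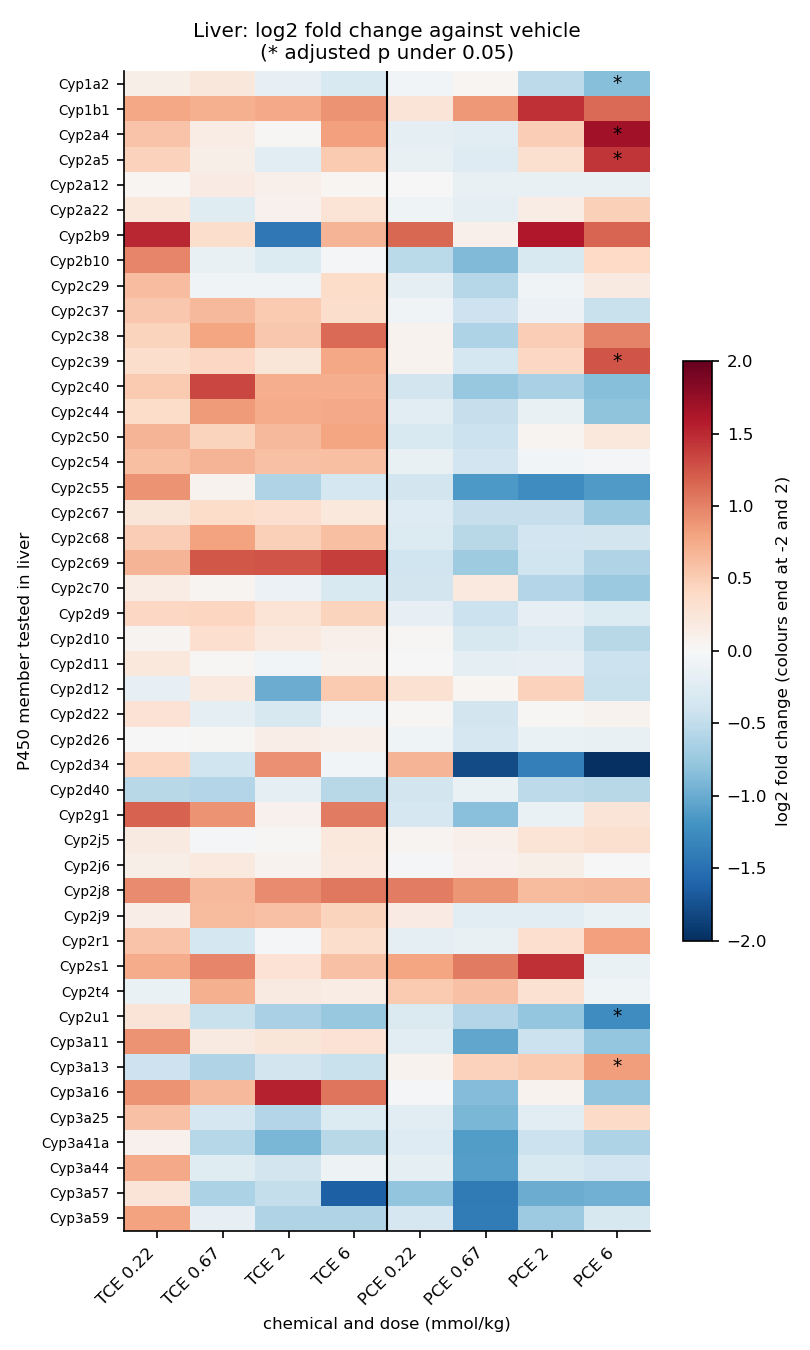
Log2 fold change against the vehicle group of the same chemical for each of the 46 members tested in liver (rows) at each dose in mmol/kg of TCE (left) and PCE (right), red for higher and blue for lower, with an asterisk at an adjusted p under 0.05. The 6 asterisks stand in the column of 6 mmol/kg PCE, and in the columns of 6 mmol/kg 11 of the 13 Cyp2c rows are above 0 with TCE and 9 below 0 with PCE.

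A slope over dose rank, 0 for vehicle to 4 for 6 mmol/kg, used all libraries of a chemical. With PCE 9 of 46 members were called in liver, where 11.8% of 13030 genes were. Unadjusted p was below 0.05 for 17 members and 3811 genes, and DESeq2 called 13 members. Cyp2a4 rose by 0.41 ± 0.09 per rank (SE; adjusted p = 0.0142), Cyp2a5 by 0.34 ± 0.08 (adjusted p = 0.0151), Cyp2c39 by 0.29 ± 0.09 (adjusted p = 0.0396) and Cyp3a13 by 0.21 ± 0.05 (adjusted p = 0.0126). Cyp2u1 fell by 0.30 per rank (adjusted p = 0.00426) and Cyp1a2 by 0.22 (adjusted p = 0.0399). The Cyp2d genes Cyp2d10, Cyp2d11 and Cyp2d40 fell by 0.14, 0.10 and 0.13 per rank, with adjusted p of 0.0179, 0.0268 and 0.0285. None of the 9 was called with the GC and length slopes as covariates, and without library 1 at 6 mmol/kg PCE 2 were, Cyp2u1 and Cyp3a13. Without library 3 at that dose 4 members were called, among them Cyp2u1 and Cyp3a13, and without PCE vehicle library 2 there were 5.

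With TCE 1 of 45 members had a called slope in liver, where 0.851% of 12453 genes did: Cyp2u1 fell by 0.25 per rank (adjusted p = 0.0341). The call was lost in 13 of 20 alternatives, 11 of them single libraries left out, with adjusted p up to 0.115. Before adjustment 12 members and 1768 genes had a p below 0.05, and DESeq2 called 4 members.

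Differences between the chemicals at equal molar dose were tested as the PCE response minus the TCE response, each against its own vehicle group. In liver 0 of 46 members were called at any of the 4 doses, where 0%, 0.0228%, 0% and 0% of genes were at 0.22, 0.67, 2 and 6 mmol/kg. At an unadjusted p under 0.05 there were 8, 14, 7 and 12 members and 631, 869, 914 and 1169 of 13175 genes. DESeq2 called 2 members at 0.67 and 3 at 6 mmol/kg, the latter Cyp2d9, Cyp3a13 and Cyp3a16. At 6 mmol/kg the differences were 1.28 for Cyp3a13 (95% interval 0.65 to 1.92, adjusted p = 0.226), -1.06 for Cyp3a11 (-1.77 to -0.35, adjusted p = 0.403), -0.73 for Cyp2d9 (-1.14 to -0.32, adjusted p = 0.293), 0.91 for Cyp2a5 (0.06 to 1.76, adjusted p = 0.547), -0.54 for Cyp1a2 (-1.26 to 0.18, adjusted p = 0.630) and 0.44 for Cyp2b10 (-1.08 to 1.95, adjusted p = 0.841). Of the 13 Cyp2c members 12 had values below 0, with a median of -0.78, beside 0.02 for all genes. Without TCE vehicle library 2 there were 2 calls at 6 mmol/kg and 3 over the lower doses. These intervals do not show that the chemicals act alike.

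The vehicle groups themselves bear on these differences, since every one of them enters with the opposite sign. PCE vehicle livers minus TCE vehicle livers, a comparison added after the data were seen, gave medians of 0.64 for Cyp2c (12 of 13 above 0) and 0.39 for Cyp3a (6 of 8 above 0), beside -0.01 for all genes. No member was called and no gene was (0%), with 13 of 46 members and 1322 genes at an unadjusted p under 0.05. Cyp3a11 was at 0.92 ± 0.24 (adjusted p = 0.154), Cyp3a13 at -0.74 ± 0.22 (adjusted p = 0.205), Cyp2c54 at 0.85 ± 0.22 (adjusted p = 0.15) and Cyp2b10 at 1.06 ± 0.52 (adjusted p = 0.508). In the difference of responses, the dosed groups' part and the vehicle groups' part cannot be told apart.

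In kidney 1 of 30 members was called at 6 mmol/kg PCE, where 3.83% of 14216 genes were. Cyp2j13, the second most abundant Cyp2j gene of the kidney, held 808 and 784 CPM in the PCE vehicle libraries and 268, 472 and 437 CPM at 6 mmol/kg, with no overlap, and fell by 1.02 on the log2 scale (SE 0.23, adjusted p = 0.0127). With TCE at that dose it held 489, 640 and 683 CPM against 768, 929 and 630 CPM (-0.36 ± 0.21, adjusted p = 0.598). The call was lost without library 1 at 6 mmol/kg PCE, where the value was -0.81 (adjusted p = 0.0806). It was also lost without either PCE vehicle library, -1.0 (adjusted p = 0.126) and -1.05 (adjusted p = 0.108), where the remaining one is assumed to vary like the other groups. The proximal tubule markers summed to 53900 to 54590 CPM at 6 mmol/kg PCE and to 72400 and 74250 CPM in the vehicle libraries. Of the 8 markers Kap, an abundant androgen-dependent transcript of the tubule, was called (-0.52 ± 0.12, adjusted p = 0.0103). The part of this in the Cyp2j13 value was not tested. Cyp2j5 differed little, with 2355 and 2357 CPM against 2034, 2248 and 2116 CPM (-0.14 ± 0.08, adjusted p = 0.412).

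At 6 mmol/kg PCE 11 of 30 kidney members lay above both vehicle libraries in every dosed library and 3 below, where 16.7% of all genes lay above and 15.3% below, against 2 vehicle libraries. For several of the more abundant members library 1 was the highest. Cyp2a5 held 847, 304 and 147 CPM against 88.7 and 187 CPM (1.65 ± 0.51, adjusted p = 0.0790), Cyp2d9 749, 144 and 170 CPM against 118 and 143 CPM (1.44 ± 0.51, adjusted p = 0.134), and Cyp2d10 5.52, 1.09 and 1.16 CPM against 0.576 and 0.892 CPM. Library 1 lay far above libraries 2 and 3 in all 3 genes. Without it Cyp2a5 was at 0.71 (adjusted p = 0.514) and Cyp2d9 at 0.26 (adjusted p = 0.813). With it kept, Cyp2a5 was called without library 3 (2.05, adjusted p = 0.0130) and Cyp2d9 without library 2 (1.8, adjusted p = 0.0294), each omission giving 3 called members in all. In library 1 the hepatocyte list summed to 373 CPM against 256 and 224 in its group and 400 and 376 in the vehicle libraries, and the periportal hepatocyte list to 6200 CPM against 2547 and 2955 in its group and 2373 and 2939 in the vehicle libraries. The periportal list summed to 1490 CPM or more in every kidney library and to 2826 to 7130 CPM in liver. It is therefore not particular to liver and does not mark hepatocytes in kidney. Among single markers in library 1, Apoa1 was at 2.48 CPM against 0.623 and 1.19, Alb at 14.5 CPM against 11.8 and 16.8, and Cyp1a2 and Cyp2c29 at 0. The part of these transcripts in the kidney values was not tested. Cyp2a4 held 866, 562 and 444 CPM against 334 and 450 CPM (0.67 ± 0.26, adjusted p = 0.186), and Cyp1b1 21.8, 10.3 and 8.91 CPM against 7.38 and 5.74 CPM (1.06 ± 0.41, adjusted p = 0.170). Cyp3a13, the most abundant Cyp3a gene of the kidney, was at 0.98 ± 0.41 (adjusted p = 0.222) and Cyp2b9 at 1.49 ± 0.63 (adjusted p = 0.224). Cyp2d22, chosen after its value was seen, missed the threshold most narrowly (2.09 ± 0.60, adjusted p = 0.0514). Cyp3a13, Cyp2b9 and Cyp2d22 were low, at or under 1.09, 0.680 and 0.960 CPM in every kidney library. Cyp2d22 had 30 reads over all kidney vehicle libraries, so its value rests on few reads. At an unadjusted p under 0.05 there were 10 of 30 members and 2330 of the 14216 genes, and DESeq2 called Cyp2a5 and Cyp2j13.

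With TCE at 6 mmol/kg 0 of 30 members were called in kidney, where 0.176% of genes were, and DESeq2 called none. Unadjusted p was below 0.05 for 6 members and 1439 of 14216 genes. Cyp2b10 held 1.71, 3.11 and 2.67 CPM against 14.2, 5.52 and 3.70 CPM, all dosed libraries below all vehicle libraries (-1.64 ± 0.59, adjusted p = 0.295). Cyp2d9 held 105, 65.5 and 104 CPM against 201, 222 and 151 CPM, also without overlap (-1.06 ± 0.44, adjusted p = 0.397), and Cyp2j5 was at -0.19 ± 0.07 (adjusted p = 0.359). The vehicle values of Cyp1a2, Cyp2c29 and Cyp3a11 in kidney came mainly from TCE vehicle library 2, at 0.927, 1.09 and 2.10 CPM, the library with the most albumin, and their kidney changes are not read.

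Below 6 mmol/kg no member was called in kidney with either chemical. The share of genes called was 0%, 0.00703% and 0% at 0.22, 0.67 and 2 mmol/kg TCE and 0%, 0% and 0.0141% at those doses of PCE. With TCE, unadjusted p was below 0.05 for 4, 1 and 1 members and 728, 1762 and 606 of 14216 genes. With PCE it was for 1, 4 and 1 members and 882, 1173 and 869 genes, and DESeq2 called no member. Over dose rank, 2 of 26 members were called with PCE, where 3.37% of 13818 genes were: Cyp2c44, an arachidonic acid epoxygenase, rose by 0.18 ± 0.04 per rank (adjusted p = 0.0252) and Cyp2j13 fell by 0.24 (adjusted p = 0.0404). Cyp2c44 held 5.61 and 4.21 CPM in the vehicle libraries and 8.84, 7.67 and 6.46 CPM at 6 mmol/kg PCE. For the PCE slope 10 members and 2469 genes had an unadjusted p under 0.05, and DESeq2 called 3 members. The Cyp2j13 slope lost its call in 13 of 19 alternatives, with adjusted p up to 0.0964 over the libraries left out, and that of Cyp2c44 in 4, up to 0.0794. With TCE 0 of 28 members were called, where 0% of 13702 genes were, and DESeq2 called none. Unadjusted p was below 0.05 for 3 members and 1243 genes.

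**Figure D5:**
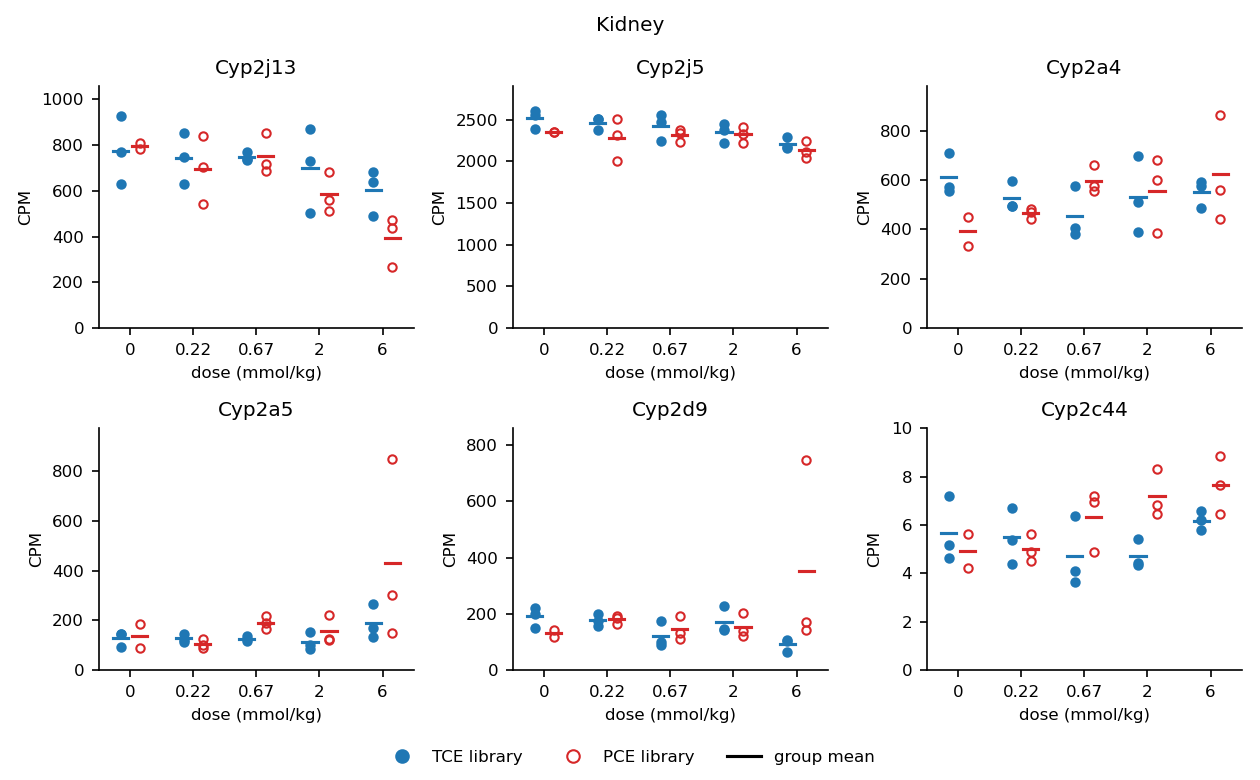
CPM in each kidney library by dose in mmol/kg for Cyp2j13, Cyp2j5, Cyp2a4, Cyp2a5, Cyp2d9 and Cyp2c44, with TCE as filled and PCE as open points and a line at each group mean. Cyp2j13 is lower at 6 mmol/kg PCE (268 to 472 CPM) than in the PCE vehicle libraries (784 and 808 CPM), and library 1 at 6 mmol/kg PCE stands alone at 847 CPM for Cyp2a5 and 749 CPM for Cyp2d9.

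PCE and TCE responses in kidney did not differ for any of the 30 members at any dose by this test, where 0%, 0%, 0% and 0.0211% of genes did at 0.22, 0.67, 2 and 6 mmol/kg. Unadjusted p was below 0.05 for 1, 4, 3 and 5 members and 637, 2279, 598 and 1086 of 14216 genes, and DESeq2 called Cyp2d10 at 6 mmol/kg. The differences at 6 mmol/kg were -0.66 for Cyp2j13 (95% interval -1.31 to -0.01, adjusted p = 0.646), 1.07 for Cyp2a5 (-0.30 to 2.44, adjusted p = 0.779) and 0.04 for Cyp2j5 (-0.19 to 0.28, adjusted p = 0.972). Between the kidney vehicle groups 0 members and 0% of genes were called, with 9 of 30 members and 1158 of 14216 genes at an unadjusted p under 0.05.

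Whether a response differed between the tissues was tested in 1 fit of all 58 libraries as the liver response minus the kidney response. This fit, also used for the vehicle libraries above, treats liver and kidney libraries as independent, though they may come from the same mice. At 6 mmol/kg PCE 2 of 47 members were called, where 0.709% of 14950 genes were. Unadjusted p was below 0.05 for 8 members and 2036 genes, and DESeq2 called 3 members. Cyp2u1 differed by -1.32 ± 0.30 (adjusted p = 0.0176), being lower in liver and at 3.52, 5.39 and 3.88 CPM against 3.84 and 4.27 CPM in kidney. The call was lost without any 1 of 4 libraries, liver library 1 at 6 mmol/kg PCE (-1.05, adjusted p = 0.0637), kidney library 2 at 6 mmol/kg PCE (-1.11, adjusted p = 0.0721) and either kidney PCE vehicle library (-1.23, adjusted p = 0.162, and -1.39, adjusted p = 0.127). Cyp2d10 differed by -2.31 ± 0.57 (adjusted p = 0.0389), and by -1.15 (adjusted p = 0.350) without kidney library 1 at 6 mmol/kg PCE. Its call was also lost without kidney PCE vehicle library 1 or 2 (adjusted p of 0.246 and 0.170), liver PCE vehicle library 2 (adjusted p = 0.0948) and liver library 1 or 3 at 6 mmol/kg PCE (adjusted p of 0.0768 and 0.0557). Without kidney library 3 at that dose 4 members were called. For TCE at 6 mmol/kg 0 of 47 members were called, where 0.328% of genes were. Unadjusted p was below 0.05 for 10 members and 1325 genes. DESeq2 called 1 member, Cyp2d9, and there was 1 call without kidney library 1 at 6 mmol/kg PCE.

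Other targets of the same receptors were followed as lists. Of 6 further AHR targets tested in liver, 2 rose at 6 mmol/kg PCE and none fell, Tiparp, an ADP-ribosyltransferase that feeds back on AHR, by 0.81 ± 0.20 (adjusted p = 0.0204) and Nqo1, a quinone reductase that NRF2 also controls, by 1.20 ± 0.28 (adjusted p = 0.0163), where 5.84% of all genes were called, 301 of them higher. Of the P450 targets, Cyp1a1 was not tested and Cyp1a2 fell. Cyp1b1, at or under 1.11 CPM in every liver library, lay above all vehicle libraries at 0.67, 2 and 6 mmol/kg PCE without a call there. So did 9.00%, 6.14% and 14.4% of all genes. It also lay above all vehicle libraries at 0.67 and 6 mmol/kg TCE, as did 3.5% and 8.07% of all genes. The PCE slope of Cyp1b1 was called by DESeq2 but not by edgeR. Tiparp was also the 1 gene of the lists whose PCE response differed between the tissues (1.04 ± 0.21, adjusted p = 0.00676). Of 16 further CAR and PXR targets, the sulfotransferase Sult1d1 rose by 1.15 ± 0.26 (adjusted p = 0.0151) and Sult5a1 fell by 1.12 (adjusted p = 0.0295) at 6 mmol/kg PCE. At 6 mmol/kg TCE, where 1.31% of all genes were called, 1 of the 16, the epoxide hydrolase Ephx1, rose by 1.08 ± 0.19 (adjusted p = 0.00386). None of the AHR targets was called at that dose. In kidney 3 of 15 CAR and PXR targets rose at 6 mmol/kg PCE, the drug exporter Abcb1a by 1.56 ± 0.31 (adjusted p = 0.00501) and the aldehyde dehydrogenases Aldh1a1 by 1.03 ± 0.26 (adjusted p = 0.0251) and Aldh1a7 by 0.76 ± 0.18 (adjusted p = 0.0200), where 3.83% of all genes were called, 252 of them higher. None of the 15 was called with TCE.

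Among the receptors and transcription factors of P450 genes tested in liver, none rose at 6 mmol/kg PCE, and Esrra, an orphan nuclear receptor of energy metabolism, was among those that fell, by 0.62 (adjusted p = 0.00366). The sensing receptors did not pass: Nr1i3, which encodes CAR, was at 0.53 ± 0.32, Nr1i2, which encodes PXR, at 0.24 ± 0.28 and Ahr at 0.25 ± 0.29. Of 13 genes of the electron partners and haem synthesis, Alad, the second enzyme of haem synthesis, fell by 1.06 (adjusted p = 0.0417) in liver and the reductase Por was at 0.89 ± 0.32 (adjusted p = 0.0931). In kidney Cyb5a, cytochrome b5, fell by 0.60 (adjusted p = 0.00402) and its reductase Cyb5r3 by 0.36 (adjusted p = 0.0280) with PCE. Of the 7 P450 members known as higher in female liver that were tested in liver, 1 rose at 6 mmol/kg PCE, Cyp2a4, whose count may include reads of Cyp2a5. Beside these counts, 5.84% of all genes were called at that dose in liver and 3.83% in kidney.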

How the data were processed

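Read counts per RefSeq transcript, 33392 per table, were deposited by the authors as 1 table per tissue without normalization, per the file headers. In columns whose deposited header holds a fractional dose the values were handled as estimated counts, though every one is whole. TopHat2 2.0.10, HTSeq, CASAVA 1.8.2 and build mm10 are named in the submitters' processing notes, whose roles, strand setting and annotation version are not given in the sources used here. Reads without a feature (14.3% to 27.5%) or ambiguous between features (19.7% to 22.6%) carry no gene and were left out. Ambiguous reads lower the counts of genes with several overlapping transcripts or neighbours.

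Transcripts were summed per gene and all genes fitted with edgeR 4.0.16 (R 4.3.3; TMM scaling, filterByExpr, robust quasi-likelihood F test, two-sided), 1 mean per group, each tissue alone and both together. Calls have a Benjamini-Hochberg adjusted p under 0.05 over all genes tested. CPM are TMM-scaled within a tissue, and errors of fold changes are SE. Dose slopes were fitted within a chemical on rank 0 to 4. DESeq2 1.42.0, another scaling, no filter, a replicate block, pooled vehicle groups, covariates and left-out libraries were alternatives. The script was tested on simulated data.

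Values are given for the receptor targets and abundant members of a fixed list whatever their result, for every member called, for the most abundant member of each subfamily and for called genes of the pathway lists, of which 1 is not reported here. Members and lists were chosen with earlier results of these data known. Promoters come from RefSeq (GRCm38.p6), where 50 of the 57 members matched.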

Additional observations from a re-analysis of the deposited data

Results flagged for a closer look

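The PCE response at 6 mmol/kg differed between liver and kidney for Cyp2d10 (-2.31 on the log2 scale, liver minus kidney) and Cyp2u1 (-1.32), by the test of that difference in edgeR (adjusted p of 0.0389 and 0.0176). For Cyp2d10 the value was -1.15 without kidney library 1 at 6 mmol/kg PCE.

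For Cyp2c29 at 0.22 mmol/kg TCE every liver library lay above its vehicle libraries (0.62) and every kidney library below (-3.77), and for Cyp2d9 at 0.22 mmol/kg PCE every liver library lay below (-0.17) and every kidney library above (0.47). Neither difference between the tissues was tested. The kidney value of Cyp2c29 rests on 3 reads in all at 0.22 mmol/kg and on vehicle reads mostly from TCE vehicle library 2, the one with the most albumin transcript, so it is listed for its value and not read as a difference between the tissues.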

How the results depend on the processing

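In liver, DESeq2 in place of edgeR moved the number of called members from 0 to 1 at 6 mmol/kg TCE, from 0 to 3 over the lower doses, from 1 to 4 for the TCE slope, from 0 to 3 and from 0 to 2 for PCE minus TCE at 6 mmol/kg and at the lower doses. In kidney it moved the number from 1 to 2 at 6 mmol/kg PCE and from 0 to 1 for PCE minus TCE at 6 mmol/kg, and for liver minus kidney with TCE from 0 to 1. Pooled vehicle groups gave 10 in place of 6 at 6 mmol/kg PCE in liver, 3 in place of 0 at its lower doses and 4 in place of 1 at 6 mmol/kg PCE in kidney. GC and length slopes as covariates gave 0 in place of 6 at 6 mmol/kg PCE, 0 in place of 1 for the TCE slope and 0 in place of 9 for the PCE slope in liver, and 4 in place of 1 at 6 mmol/kg PCE in kidney. Without a count filter the kidney PCE slope and the tissue difference with PCE had 1 call each in place of 2. With library totals, Cyp2j9 turned from higher in liver to -0.32.

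Within a tissue, deviations of same-numbered libraries of different groups had median correlations of -0.02 in liver and 0.02 in kidney (126 pairs each). Single pairs ran from -0.79 to 0.677 in liver and from -0.367 to 0.471 in kidney. The medians gave no sign of a common pairing by number within a tissue. Whether a liver and a kidney library came from the same mouse was not tested, and the labels do not say. The replicate block gave 5 in place of 6 members at 6 mmol/kg PCE in liver, 0 in place of 1 for the TCE slope, 8 in place of 9 for the PCE slope and 1 in place of 2 for the kidney PCE slope.

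With single libraries left out, the counts ran from 0 to 3 at 6 mmol/kg TCE, 1 to 8 at 6 mmol/kg PCE, 0 to 2 at the lower doses, 0 to 1 for the TCE slope, 2 to 13 for the PCE slope, and 0 to 2 and 0 to 3 for PCE minus TCE in liver. They ran from 0 to 3 at 6 mmol/kg PCE and 0 to 2 for the PCE slope in kidney, from 0 to 1 with TCE and 0 to 4 with PCE between the tissues, and from 43 to 44 between the tissues in vehicle-treated mice. The causes were not tested. Depth limits members with few reads, such as Cyp1a1, Cyp2b9 and Cyp2b13 in liver and most Cyp2c and Cyp3a genes in kidney.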
